A study of Mus musculus with 12 samples.

Results

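The antiviral effectors described here are 9 mouse genes: Ifit1, Ifit2 and Ifit3, Mx1 and Mx2, Rsad2 (viperin), Cmpk2 (written Tyki in the files), Bst2 (tetherin) and Ifitm3. They were taken by gene symbol from the 23904 genes named on the array and are represented by 12 of its 45281 probes. Levels were measured on 12 Illumina Mouse WG6V2 BeadChip arrays in lineage-negative, Kit-positive, CD45.2-positive cells, a fraction of bone marrow enriched for haematopoietic stem and progenitor cells (HSPCs). All cells came from chimeric mice that had been transplanted 12 to 16 weeks earlier with 2000000 fetal liver cells of embryonic day 13.5, and the strain given for every sample is C57BL/6. No drug or infection is named for any group. Genotype and experiment define 4 groups of 3 arrays. Caspase-9 knockout cells (Casp9 KO) were hybridized with wild-type cells of experiment 1 (WT experiment 1) on 1 beadchip, and cells lacking both Bak and Bax (Bak/Bax DKO) with wild-type cells of experiment 2 (WT experiment 2) on another. The host mice, the knockout alleles and whether samples of a group came from separate animals are unstated in the sources at hand, so the p-values measure the spread between these samples.

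Interferon-stimulated genes are switched on when an interferon binds its receptor and Janus kinases pass the signal to transcription factors that bind interferon-stimulated response elements in DNA. The genes described here belong to the antiviral part of this response. IFIT proteins bind viral RNA and block its translation, Mx proteins are dynamin-like GTPases that trap viral particles, viperin makes a nucleotide that ends viral RNA chains, tetherin holds budding virus at the cell surface and IFITM3 blocks fusion of viruses with the membrane of endosomes. The series is about cytokine signals regulated by caspase-9, an initiator protease of apoptosis that acts downstream of mitochondria, whose outer membrane is opened by Bak and Bax.

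The core of the response element, which is GAAA, a pair of bases of any kind and GAAA again, was searched on both strands of the RefSeq promoter windows of build GRCm38.p6, which run from 250 bases before to 50 bases after each transcript start. Windows were found for 7 of the 9 genes, all but Mx1 and Mx2, and the motif was in those of 5: Ifit1, Ifit3, Rsad2, Bst2 and Ifitm3. It was in 3.44% of all 32851 windows and in those of 3.99% of 27025 genes. The stretches that hold the matches are shown because interferon is known to act on such genes through this element. They are from RefSeq and are written 5′ to 3′ on the strand of the gene, with capitals marking the motif. The motif reads TTTC, a pair of bases and TTTC where it lies on the opposite strand.
Ifit1, chr19:34640765-34640833, plus strand: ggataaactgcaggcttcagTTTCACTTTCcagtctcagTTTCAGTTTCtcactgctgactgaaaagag
Ifit3, chr19:34583353-34583436, plus strand: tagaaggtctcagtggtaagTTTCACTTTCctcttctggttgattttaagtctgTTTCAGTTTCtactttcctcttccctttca
Rsad2, chr12:26456543-26456592, minus strand: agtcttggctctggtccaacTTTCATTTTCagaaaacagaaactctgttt
Bst2, chr8:71537567-71537622, minus strand: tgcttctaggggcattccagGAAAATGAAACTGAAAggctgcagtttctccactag
Ifitm3, chr7:141010696-141010762, minus strand: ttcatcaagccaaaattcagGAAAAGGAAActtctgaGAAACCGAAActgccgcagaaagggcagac

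Ifit1 and Ifit3 held 2 matches each, at -104 and -85 and at -156 and -122 bases from the start, and Rsad2 held 1 at -120. The 2 matches of Bst2, at -130 and -124, overlap each other, and the 2 of Ifitm3 lie just inside the transcript, at 2 and 19. The core of the gamma-activated site, TTCNNNGAA, which reads the same on both strands, was found in 3 of the 7 genes. It lay at -241 in 1 of the 2 windows of Ifit2, at -136 in Bst2 and at 13 in Ifitm3, and in the last 2 it overlaps a match of the first motif. It was in 8.3% of all windows and in those of 9.55% of genes. Neither motif was found in the window of Cmpk2 or in the second window of Ifit2. A match of letters is not a bound site, and its absence from a window says nothing of the factor.

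**Figure D1:**
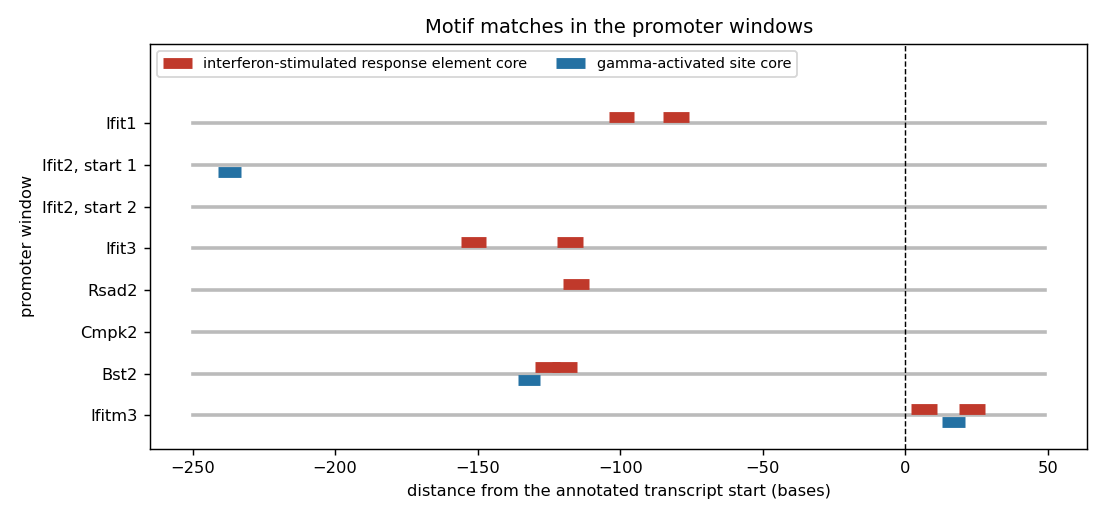
Matches of the interferon-stimulated response element core (red, above the line) and the gamma-activated site core (blue, below the line) in the promoter windows of 7 genes, by distance in bases from the annotated transcript start (dashed). The first motif lies between -156 and -76 in 4 genes and just after the start in Ifitm3, and Cmpk2 shows neither.

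The reference annotation places Ifit2, Ifit3, Ifit1bl1, Ifit3b, Ifit1bl2 and Ifit1 in that order on chromosome 19, Rsad2 and Cmpk2 next to each other on chromosome 12, and Mx1 and Mx2 on chromosome 16. RefSeq lists both Mx genes as transcribed pseudogenes in this reference, which is of the C57BL/6J strain. Their probes therefore report RNA and not a working protein. Probe positions below are those in the files, whose genome build the sources used here do not give, and they are not on the scale of the promoter coordinates.

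The targeted genes followed the labels: Casp9 (ILMN_1217061) fell by 3.25 on the log2 scale in Casp9 KO, Bak1 was at least 3.09-fold lower in Bak/Bax DKO and Bax fell by 1.82 there, with limma adjusted p = 3.04e-05, 0.000122 and 0.000381. The other 3 Casp9 probes were at background on all 6 arrays of experiment 1 and check nothing there. Kit, Cd34 and Gata2 were above background on all 12 arrays, with Kit at group means of 11.79 to 12.80, while Cd3e, Cd8a, Ms4a1 and Itgam were not above background on enough arrays to be tested. Mean bead intensity was 321.5 to 522.0 on 11 arrays and 234.5 on Bak/Bax DKO replicate 2. That array correlated with the others at 0.856 to 0.869 across probes, against 0.978 to 0.995 among the other 11, so effector changes, list medians and counts of calls that moved by over 1.5 times without it are given both ways. The number of arrays limits the precision.

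Most of these effectors rose in Casp9 KO. The test was limma's moderated test on 18867 probes with signal above background (detection p under 0.05) on at least 3 of the 12 arrays, and a probe was called at an adjusted p under 0.05 over all of them. It called 1.14% of all probes in Casp9 KO, and 0.88% as higher. Of the 12 effector probes 11 could be tested, 9 rose, 0 fell and 2 were not called. They belonged to 7 of the 8 genes tested, and Bst2 was the gene without a call. All 11 were higher in the knockout, by 1.11 to 4.23 with a median of 1.88 on the log2 scale, against a median of -0.03 over all probes. For 11 of 11 every knockout array lay above every wild-type array, which was so for 10.4% of all probes. The Ifit3 probes ILMN_1230458 and ILMN_1246194 passed the detection filter only through the Casp9 KO arrays. Their rise there was partly fixed in advance by that filter. With detection on at least 6 arrays, 9 effector probes were tested and 7 called, as were 1.1% of all probes. In sorted cells measured as a bulk, more RNA per cell and a larger share of cells that make it cannot be told apart.

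In Bak/Bax DKO 3 of the 11 effector probes rose, those of Rsad2 and Mx2 and 1 of the 3 of Ifit3. Of all probes 1.82% were called there, 1.43% as higher. Of the 11, 0 fell and 6 had an unadjusted p under 0.05, a level for which no share of all probes was counted. All 11 were above wild type, by 0.22 to 2.09 with a median of 0.66, against 0.08 over all probes. Without replicate 2 the median was 0.30 (0.20 to 1.70), against -0.006 over all probes. For 6 of them every knockout array lay above every wild-type array, which was so for 11.8% of all probes. The 2 comparisons share no arrays.

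**Figure D2:**
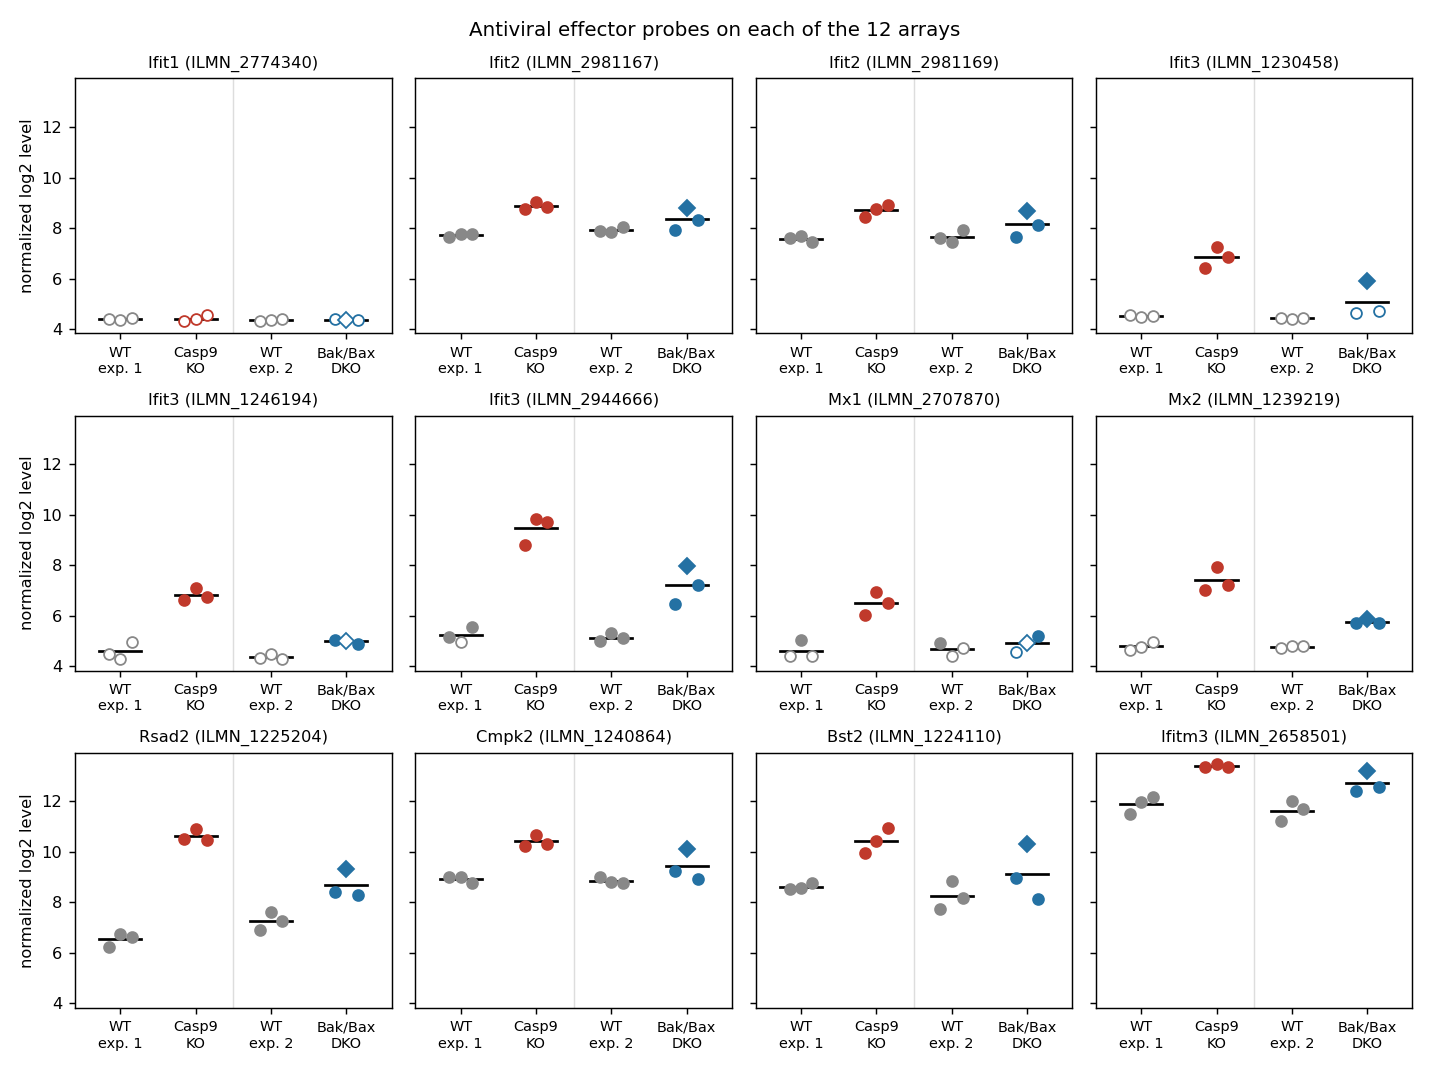
Normalized log2 level of each of the 12 effector probes on each of the 12 arrays, by group (WT experiment 1 and 2 grey, Casp9 KO red, Bak/Bax DKO blue). Black bars are group means of 3 arrays, filled symbols are above background, and the diamond is Bak/Bax DKO replicate 2. The 3 Casp9 KO arrays lie above their wild type for all probes but that of Ifit1.

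The IFIT genes spanned the range from no signal to a rise ranked first on the array. Ifit3, which in humans is known to bind and stabilize IFIT1, was read by 3 probes. The probe ILMN_2944666 (chromosome 19, 34662951 to 34663000, plus strand) read 5.18, 4.97 and 5.55 in WT experiment 1, whereas Casp9 KO read 8.81, 9.85 and 9.72. The wild-type arrays lay at the edge of detection, with 2 of 3 above background, and the knockout arrays lay far above them. The means were 5.23 ± 0.29 and 9.46 ± 0.56 (SD, n = 3), a log2 change of 4.23 (SE 0.37) or 18.7-fold (limma adjusted p = 0.000167). It ranked 1 of the 18867 probes by its rise.

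In experiment 2 the same Ifit3 probe was at 4.99, 5.32 and 5.11 in the wild type and at 6.46, 7.99 and 7.23 in Bak/Bax DKO. All 3 knockout arrays were higher than all 3 wild-type arrays, and replicate 2 was the highest. The log2 change was 2.09 (SE 0.37, limma adjusted p = 0.0175), and 1.70 (adjusted p = 0.00821) without replicate 2. Quantile normalization with no background correction gave 0.98, which did not pass (adjusted p = 0.104). Its call was lost when any of the 3 WT experiment 2 arrays was left out, with adjusted p of up to 0.0804. The Casp9 KO change exceeded that of Bak/Bax DKO by 2.14 (SE 0.52, 95% interval 0.99 to 3.30), which did not pass over all 12 arrays (adjusted p = 0.0761) but did so with Bak/Bax DKO replicate 2 left out (2.53, adjusted p = 0.00363).

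The other 2 Ifit3 probes lie 1 base apart on chromosome 19 in the files (ILMN_1230458 at 34661620 to 34661669 and ILMN_1246194 at 34661619 to 34661668). The second carries the Entrez ID of Ifit3b, a neighbouring copy of the gene, so reads of Ifit3 and Ifit3b cannot be told apart with them. ILMN_1230458 was at 4.55, 4.47 and 4.53 in WT experiment 1 and at 6.44, 7.25 and 6.84 in Casp9 KO. ILMN_1246194 was at 4.49, 4.31 and 4.97 in the wild type and at 6.64, 7.11 and 6.75 in the knockout. Both were not above background on any wild-type array and were above it on all 3 knockout arrays, so their rises are lower bounds. These were at least 3.65-fold (limma adjusted p = 0.00264) and at least 3.63-fold (adjusted p = 0.000113), taken against the lowest signal above background on the wild-type arrays or the probe's own signal where that was higher, as for all such bounds here. The bounds hold for the values as deposited. With quantile normalization and no background correction the log2 changes of these 2 probes were 0.94 and 0.93.

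In Bak/Bax DKO the 2 overlapping Ifit3 probes did not pass. ILMN_1230458 was at 4.65, 5.89 and 4.73 (wild type 4.43, 4.42 and 4.45; log2 change 0.66, limma adjusted p = 0.337), with replicate 2 the only array above background, and its change was 0.26 without that array (adjusted p = 0.552). ILMN_1246194 was at 5.05, 5.02 and 4.89 (wild type 4.32, 4.49 and 4.29; log2 change 0.62, adjusted p = 0.141), with 2 of 3 above background. The 2 probes differed by -0.16 to 0.43 on the other 11 arrays, as ILMN_1246194 minus ILMN_1230458, and by -0.87 on replicate 2. The Casp9 KO effect was larger by 1.62 (SE 0.26, adjusted p = 0.0146) for ILMN_1246194. For ILMN_1230458 it was larger by 1.66, which did not pass (adjusted p = 0.0875) until replicate 2 was left out (2.06, adjusted p = 0.000707).

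Ifit2, which binds RNA and is known in mice to protect neurons from neurotropic viruses, was above background on all 12 arrays with both probes. ILMN_2981167 (chromosome 19, 34650641 to 34650690, plus strand) was at 7.64, 7.75 and 7.76 in WT experiment 1 and at 8.74, 9.04 and 8.85 in Casp9 KO, a rise of 1.16 (SE 0.20, limma adjusted p = 0.0157). ILMN_2981169 (34650568 to 34650617) was at 7.62, 7.69 and 7.47 in the wild type and at 8.43, 8.75 and 8.92 in the knockout, a change of 1.11 (SE 0.24). The groups did not overlap on either probe. The second was not called (adjusted p = 0.064) and was called without Bak/Bax DKO replicate 1 or 2, with adjusted p = 0.00328 in the latter case. The call on the first was lost without any WT experiment 1 array or without Casp9 KO replicate 2 or 3, with adjusted p of up to 0.0902.

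In experiment 2 the Ifit2 groups overlapped on both probes. ILMN_2981167 was at 7.90, 7.85 and 8.05 in the wild type and at 7.94, 8.80 and 8.33 in Bak/Bax DKO (log2 change 0.43, 95% interval -0.01 to 0.86, limma adjusted p = 0.342). ILMN_2981169 was at 7.60, 7.45 and 7.93 and at 7.65, 8.68 and 8.12 (0.49, 95% interval -0.05 to 1.03, adjusted p = 0.383). With replicate 2 left out these changes were 0.20 and 0.23 (adjusted p = 0.569 and 0.633). On both probes replicate 1 of the knockout lay within the wild-type range and replicate 2 was the highest. The effects of the 2 knockouts differed by 0.73 (adjusted p = 0.226) and 0.62 (adjusted p = 0.427). Without Bak/Bax DKO replicate 2 the first difference was 0.96 (adjusted p = 0.0178) and the second 0.88 (adjusted p = 0.0759).

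Ifit1, which binds the 5′ end of RNA that lacks the cap methylation of the host, gave no signal with its 1 probe (ILMN_2774340, chromosome 19, 34723915 to 34723964). It was not above background on any of the 12 arrays, with log2 values from 4.31 to 4.55, and could not be tested. Fitted without the detection filter its change was 0.01 in Casp9 KO and 0.02 in Bak/Bax DKO. These values say that this probe read nothing, not that the transcript is absent. Its promoter window holds the pair of motif matches shown above.

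Rsad2 and Cmpk2 are neighbours on chromosome 12, and Cmpk2 encodes a mitochondrial kinase that supplies CTP, the substrate of viperin. Rsad2 (ILMN_1225204, 27127811 to 27127860, minus strand) read 6.22, 6.77 and 6.62 in WT experiment 1, whereas Casp9 KO read 10.52, 10.92 and 10.47. The groups were far apart next to their spread, with means of 6.54 ± 0.29 and 10.64 ± 0.24 (SD, n = 3). The rise was 4.10 (SE 0.29), or 17.1-fold (limma adjusted p = 3.11e-05), the fifth by size (rank 5 of 18867).

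In Bak/Bax DKO, Rsad2 was at 8.41, 9.33 and 8.30, against 6.90, 7.61 and 7.27 in WT experiment 2. The groups did not overlap, and the knockout mean was 8.68 ± 0.57 (SD, n = 3), a rise of 1.42 (SE 0.29) or 2.67-fold (limma adjusted p = 0.0331). Without replicate 2 the rise was 1.09 (adjusted p = 0.0185). The call was lost when any of 7 other arrays was left out: the 3 WT experiment 2 arrays, WT experiment 1 replicates 2 and 3 and Casp9 KO replicates 1 and 3, with adjusted p of up to 0.128. The Casp9 KO rise was the larger by 2.68 (SE 0.41, 95% interval 1.78 to 3.58, adjusted p = 0.011), a call that held whichever of the 12 arrays was left out (adjusted p of up to 0.0376).

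Rsad2 also stood higher in the wild type of experiment 2 than in that of experiment 1. The means were 7.26 ± 0.35 and 6.54 ± 0.29 (SD, n = 3), and the 3 arrays of each did not overlap. The difference of 0.72 did not pass (limma adjusted p = 0.165), but did so with Bak/Bax DKO replicate 2 left out (adjusted p = 0.0232). With limma, 0 of the 11 effector probes were called between the wild types, 1 had an unadjusted p under 0.05, which was Rsad2, and 8.35% of all probes were called. Experiment and beadchip cannot be told apart in this comparison.

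Cmpk2 (ILMN_1240864, chromosome 12, 27164608 to 27164657, plus strand) was at 9.01, 9.02 and 8.76 in WT experiment 1 and at 10.24, 10.69 and 10.32 in Casp9 KO. Every knockout array was at least a full log2 unit above every wild-type array, and the rise was 1.49 (SE 0.26, limma adjusted p = 0.0195). The call was lost without any WT experiment 1 array or without Casp9 KO replicate 2 or 3, with adjusted p of up to 0.102. In experiment 2 it was at 9.0, 8.80 and 8.78 in the wild type and at 9.26, 10.10 and 8.93 in Bak/Bax DKO. Replicate 3 of the knockout lay within the wild-type range. The change of 0.57 (95% interval 0.00 to 1.15, adjusted p = 0.334) became 0.24 without replicate 2 (adjusted p = 0.55). The 2 effects differed by 0.91 (adjusted p = 0.26), and by 1.25 without that array (adjusted p = 0.00754).

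The 2 Mx genes started from background and were read by 1 probe each. Mx2 (ILMN_1239219, chromosome 16, 97782232 to 97782281, plus strand) was at 4.66, 4.77 and 4.98 in WT experiment 1, with 0 of 3 arrays above background, and at 7.04, 7.95 and 7.23 in Casp9 KO. It was at least 5.41-fold higher (limma adjusted p = 9.31e-05). In experiment 2 it was at 4.72, 4.79 and 4.82, again with 0 of 3 above background, and at 5.71, 5.86 and 5.73 in Bak/Bax DKO. The 3 Bak/Bax DKO arrays agreed closely and were all above background, at least 1.84-fold higher (adjusted p = 0.04). Under quantile normalization with no background correction the log2 change there was 0.32, which did not pass (adjusted p = 0.265).

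Leaving out Bak/Bax DKO replicate 2 left the fitted Mx2 change there at 0.94, against 0.99 with it (limma adjusted p = 0.0371). Its call was lost without any of 9 other arrays, that is all but Casp9 KO replicates 1 and 2 and Bak/Bax DKO replicate 2, with adjusted p of up to 0.134. The Casp9 KO effect on Mx2 was larger by 1.61 (SE 0.29, adjusted p = 0.0265). That call was lost without any of the 6 wild-type arrays or Casp9 KO replicate 3, with adjusted p of up to 0.0801.

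Mx1 (ILMN_2707870, chromosome 16, 97671997 to 97672046, minus strand) was at 4.40, 5.05 and 4.39 in WT experiment 1 and at 6.03, 6.94 and 6.51 in Casp9 KO. It was above background on 1 of 3 wild-type arrays and on all 3 knockout arrays. The rise was 1.88 (SE 0.27, limma adjusted p = 0.00548), and 0.74 with quantile normalization and no background correction (adjusted p = 0.0191). In experiment 2 it was at 4.91, 4.42 and 4.74 in the wild type and at 4.57, 4.94 and 5.21 in Bak/Bax DKO, with 1 of 3 arrays above background in each. The groups overlapped, and the change was 0.22 (95% interval -0.38 to 0.82, adjusted p = 0.71). The difference of the 2 effects, 1.66 (95% interval 0.81 to 2.51), had an adjusted p of 0.0628, and of 0.0258 without Bak/Bax DKO replicate 2.

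Bst2 and Ifitm3 act at membranes and were above background on all 12 arrays. Ifitm3 (ILMN_2658501, chromosome 7, 148195586 to 148195635, minus strand) was at 11.51, 11.97 and 12.18 in WT experiment 1 and at 13.35, 13.47 and 13.38 in Casp9 KO. The knockout arrays lay close together, with means of 11.89 ± 0.35 and 13.40 ± 0.07 (SD, n = 3), and the rise was 1.52 (SE 0.26, limma adjusted p = 0.0193). Its call was lost without WT experiment 1 replicate 1 or 2 or Casp9 KO replicate 2 or 3, with adjusted p of up to 0.104.

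In experiment 2, Ifitm3 was at 11.21, 12.03 and 11.70 in the wild type and at 12.42, 13.22 and 12.57 in Bak/Bax DKO. The groups did not overlap, but the change of 1.09 (SE 0.26) did not pass (limma adjusted p = 0.0704). It was 0.85 (adjusted p = 0.0725) without replicate 2. Among the 12 arrays left out singly it passed without replicate 1 alone (1.25, adjusted p = 0.0491). Of the 11 probes Ifitm3 had the smallest difference between the 2 effects, 0.42 (95% interval -0.40 to 1.24, adjusted p = 0.614). The interval includes 0 and also differences above 1 log2 unit. Without Bak/Bax DKO replicate 2 the difference was 0.67 (adjusted p = 0.254).

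Bst2 (ILMN_1224110, chromosome 8, 74058256 to 74058305, minus strand) was at 8.53, 8.58 and 8.75 in WT experiment 1 and at 9.97, 10.43 and 10.94 in Casp9 KO. The groups did not overlap, and the change was 1.82 (SE 0.48, 95% interval 0.76 to 2.89). It was not called (limma adjusted p = 0.128). In experiment 2 it was at 7.74, 8.84 and 8.16 in the wild type and at 8.96, 10.33 and 8.12 in Bak/Bax DKO, a change of 0.89 (95% interval -0.17 to 1.96, adjusted p = 0.415). The knockout values there ran from within the wild-type range to well above it, with an SD of 1.11, and all 4 groups share 1 estimate of the spread. Without Bak/Bax DKO replicate 2 the Casp9 KO change was called (adjusted p = 0.00386) and the Bak/Bax DKO change was 0.30 (adjusted p = 0.723). The 2 effects differed by 0.93 (adjusted p = 0.555), and by 1.52 without that array (adjusted p = 0.0708).

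**Figure D3:**
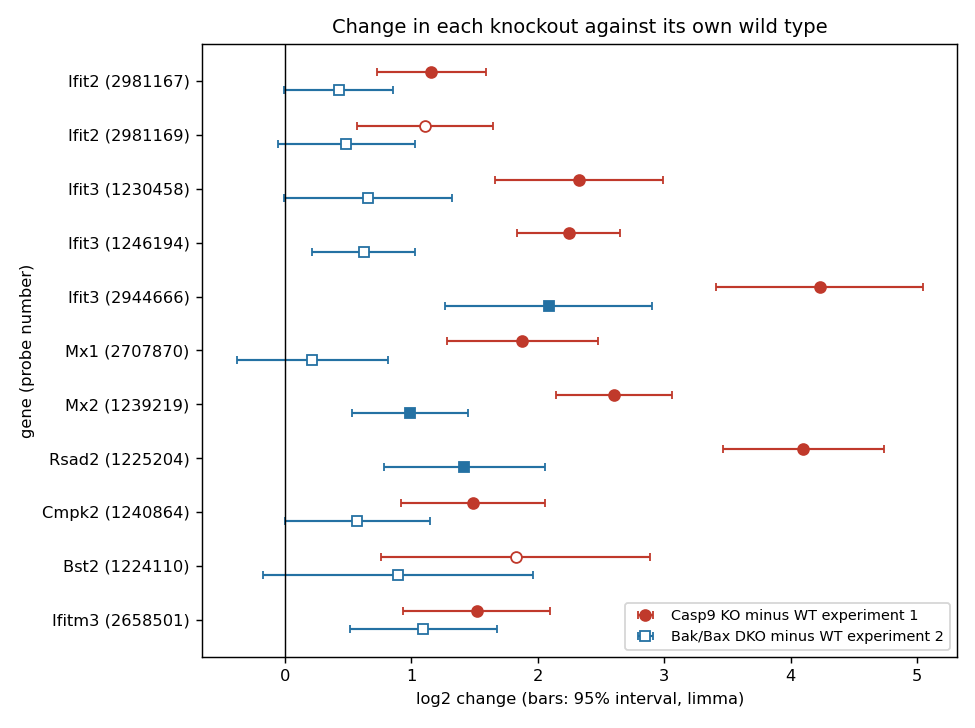
Log2 change of the 11 tested effector probes in Casp9 KO (red circles) and Bak/Bax DKO (blue squares) against their own wild type, with limma 95% intervals over 12 arrays. Filled symbols passed an adjusted p of 0.05. All points lie above 0, from 1.11 to 4.23 in Casp9 KO and from 0.22 to 2.09 in Bak/Bax DKO.

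Set side by side, the Casp9 KO effect was the larger for all 11 probes, with a median difference of 1.61, against -0.10 over all probes. With limma, 3 of these 11 differences passed, those of Rsad2, Mx2 and the Ifit3 probe ILMN_1246194, as did 1.49% of all probes and 0.631% in this direction. A further 5 had an unadjusted p under 0.05, for which no share of all probes was counted. The Ifit3 probes ILMN_1230458 and ILMN_1246194 passed the detection filter only through the Casp9 KO arrays, so that filter favoured their larger effect there. With detection on at least 6 arrays, 2 of 9 differences passed, as did 1.34% of all probes. Without Bak/Bax DKO replicate 2, 8 of the 11 passed, all but Bst2, Ifitm3 and the Ifit2 probe ILMN_2981169. Both of the Ifit3 probes favoured by the filter were among those that passed. Without that array, 11 of 11 probes were called in Casp9 KO and the same 3 in Bak/Bax DKO. The share of all probes called also rose in that fit, to 4.25% in Casp9 KO, 2.98% in Bak/Bax DKO and 5.28% for the difference.

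Bak/Bax DKO replicate 2 was the highest array of its group for 9 of the 11 probes, and for 61.3% of all probes. The deposited bead intensities, before normalization, ranked it highest for 2 of the 11, Bst2 and the Ifit3 probe ILMN_1230458. For Rsad2 they were 413.5, 378.8 and 411.7 on replicates 1, 2 and 3, for Cmpk2 683.2, 593.9 and 585.5, and for Bst2 570.2, 670.3 and 375.4. For Rsad2 replicate 2 was thus the lowest before normalization and the highest after it. Mean bead intensity over all probes was 366.7, 234.5 and 386.4 on replicates 1, 2 and 3, so replicate 2 was dim as a whole. The share of all probes it ranked highest for before normalization was not counted. Among the Casp9 KO arrays, replicate 1 was the lowest for 10 of the 11 probes, as for 36.6% of all probes, and replicate 2 the highest for 9, as for 32.5%. What sets these arrays apart was not tested.

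**Figure D4:**
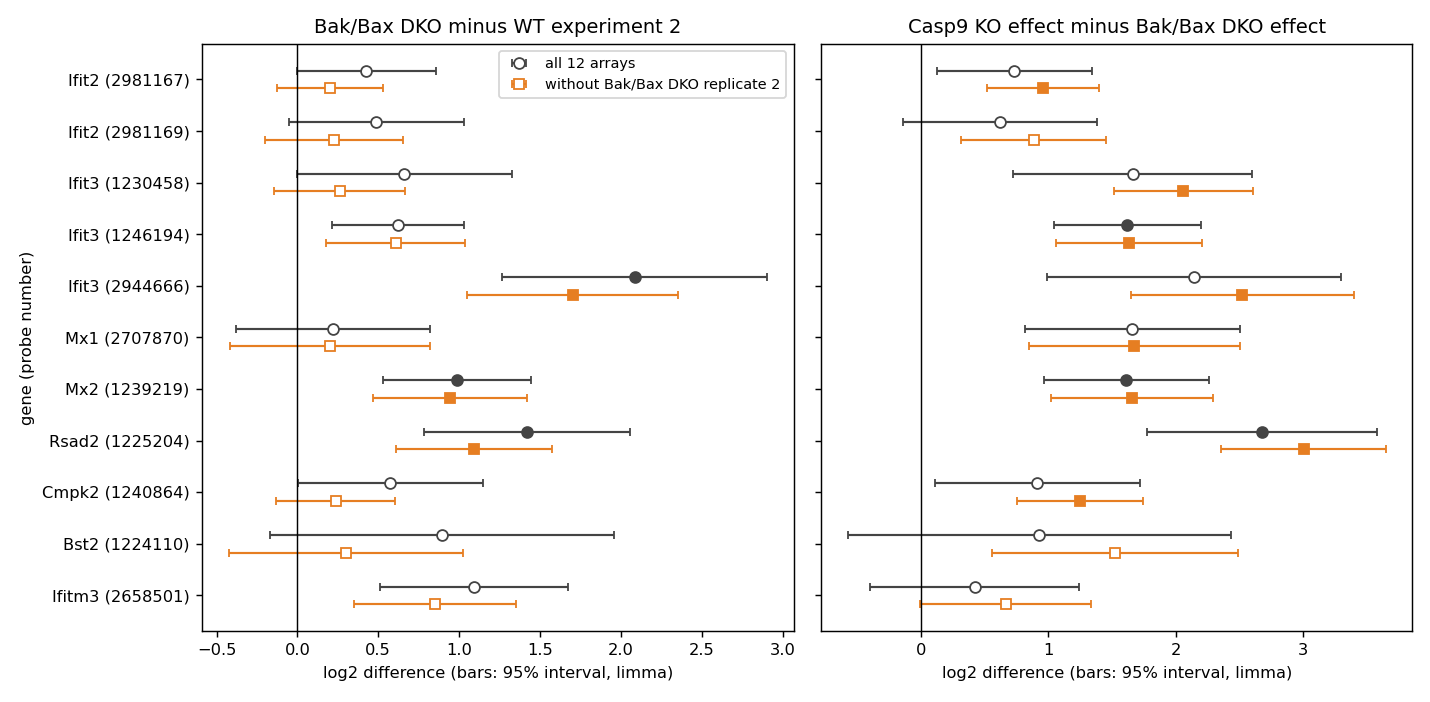
Log2 change in Bak/Bax DKO (left) and Casp9 KO effect minus Bak/Bax DKO effect (right) for the 11 tested effector probes, with limma 95% intervals, over all 12 arrays (grey circles) and without Bak/Bax DKO replicate 2 (orange squares). Filled symbols passed an adjusted p of 0.05. The same 3 probes pass on the left either way, and 3 become 8 on the right.

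For each effector gene whose highest probe spanned more than 2 log2 units over the 12 arrays, the 2 probes of other genes with the most similar course were sought. Likeness was the root mean square difference, in log2 units, of values centred on each probe's own mean over 12 arrays that share normalization and groups. Nearest to Rsad2 were Gm4951, an interferon-inducible GTPase gene, at 0.332, and Ifi27l2a at 0.418. Nearest to Ifit3 (ILMN_2944666) were Ly6a, which encodes the stem cell antigen Sca-1, at 0.268, and Usp18, which removes Isg15 from proteins, at 0.299. Nearest to Mx2 were 2 probes of Dhx58, an RNA helicase gene, at 0.222 and 0.252. Mx1 lay nearest to the chemokine gene Cxcl10 (0.281) and Phf11a (0.286), whose log2 changes in Bak/Bax DKO were -0.04 and 0.40. Ifitm3 lay nearest to Ube2l6, an enzyme that conjugates Isg15 (0.189), and Helz2 (0.236), and Bst2 to Oasl1 (0.409) and Gm4070 (0.427). These are descriptions of likeness within the 12 arrays.

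Of 33 other antiviral effector genes 29 were tested, and 21 rose in Casp9 KO and 13 in Bak/Bax DKO, with 0 falling in either and 8 and 16 not called. Their median log2 changes were 1.90 and 0.91. Oas1a, Oas3 and Rtp4, called in Casp9 KO, passed the detection filter only through the arrays of that knockout. Oas2 and Oasl2 of the oligoadenylate synthetase family rose by 3.71 and 3.30 in Casp9 KO and by 2.39 and 1.93 in Bak/Bax DKO (limma adjusted p = 2.67e-05, 2e-05, 0.000797 and 0.00102). Usp18 rose by 4.01 and 1.98, and Dhx58 by 2.23 and 0.91. With Bak/Bax DKO replicate 2 left out, the counts were 25 in Casp9 KO and 13 in Bak/Bax DKO.

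Relatives of the IFIT and IFITM genes included some that rose and some near no change. Of 9 such genes 7 were tested, 3 rose in Casp9 KO and 0 rose in Bak/Bax DKO (where 2 had an unadjusted p under 0.05), with medians of 0.73 and 0.33 (0.11 in Bak/Bax DKO without replicate 2). Those that rose were Ifit3b, read by the Ifit3 probe already described, Ifit1bl1, at least 3.45-fold higher (limma adjusted p = 0.00035), and Ifitm1, by 1.27 (adjusted p = 0.00948). Ifit3b and Ifit1bl1 passed the detection filter only through the Casp9 KO arrays. Ifitm2 stood at 0.10 and Ifitm6 at 0.73 in Casp9 KO, and neither passed (adjusted p = 1 and 0.709). Whether other probes of this family bind transcripts of related genes was not tested.

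Among 28 genes of interferon signalling 19 were tested, 4 rose in Casp9 KO and 3 in Bak/Bax DKO, and 0 fell, with medians of 0.41 and 0.15 (0.05 in Bak/Bax DKO without replicate 2). Irf7, a transcription factor that amplifies interferon production, rose by 3.69 in Casp9 KO and 1.70 in Bak/Bax DKO (limma adjusted p = 0.000101 and 0.0172). Ddx58, which encodes the RNA sensor RIG-I, rose by 1.54 and 1.02, and Irf9 by 0.72 and 0.97. The count in Casp9 KO was 6 with Bak/Bax DKO replicate 2 left out. Ifnb1, Ifna2, Ifna4, Ifna5, Ifng, Ifnl3, Ifnar1 and Socs1 were on the array but not above background on enough arrays to be tested.

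**Figure D5:**
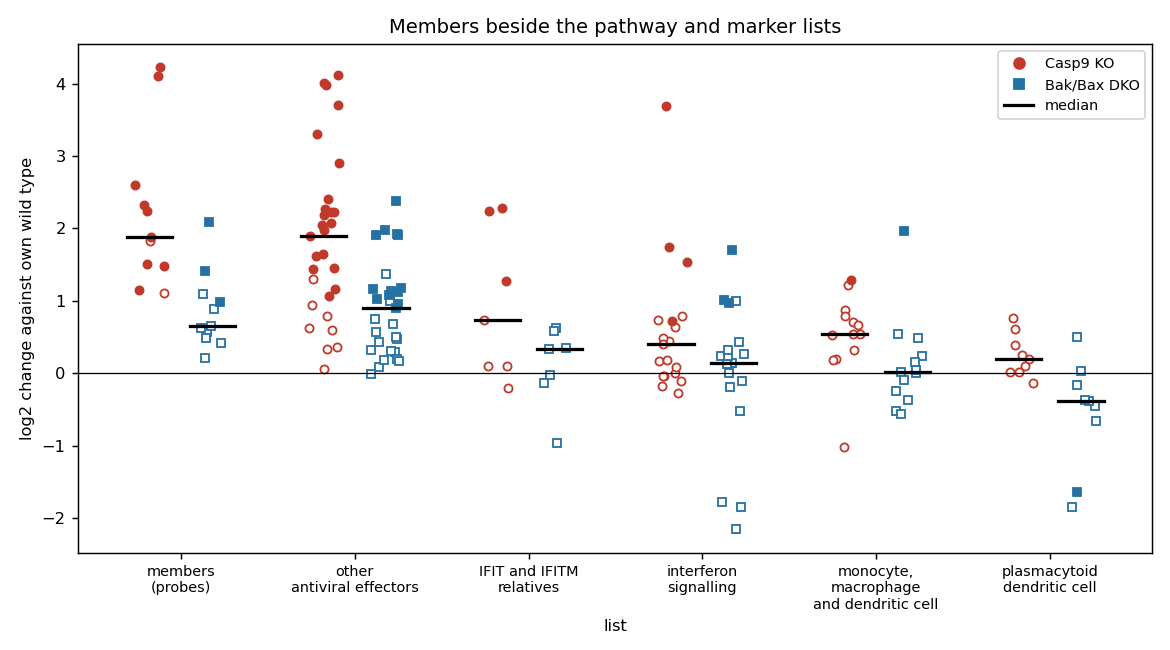
Log2 change against the own wild type of the tested effector probes and of the tested genes of 3 pathway lists and 2 marker lists, in Casp9 KO (red circles) and Bak/Bax DKO (blue squares). Filled symbols passed an adjusted p of 0.05 and black bars are medians: 1.88 and 0.66 for the effectors, 1.90 and 0.91 for the other antiviral effectors, 0.55 and 0.02 for the monocyte list, and 0.20 and -0.38 for the plasmacytoid dendritic cell list.

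Markers of other blood cells were read beside these values. Of 13 tested markers of monocytes, macrophages and dendritic cells, 12 were higher in Casp9 KO, with a median of 0.55. Mpeg1, which encodes a pore-forming protein, was the 1 called (1.29, limma adjusted p = 0.0474), and 7 of the 13 had an unadjusted p under 0.05. Their summed level on the linear scale was 3387 to 4946 in WT experiment 1 and 4475 to 6241 in Casp9 KO, and 4698 to 5755 in WT experiment 2 and 3947 to 9136 in Bak/Bax DKO. Fcgr1, C1qa and C1qb were not above background on any wild-type array, and Itgax and Flt3 were among those too dim to be tested. Fcgr1 passed the detection filter only through the Casp9 KO arrays, and C1qa and C1qb only through those of Bak/Bax DKO. In Bak/Bax DKO 1 of the 13 rose, C1qb, whose rise was thus partly fixed in advance. The median there was 0.02, or -0.26 without replicate 2. Without Bak/Bax DKO replicate 2, 3 of the markers rose and 1 fell in Casp9 KO.

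Plasmacytoid dendritic cells are the classic source of type I interferon. Of 9 tested markers of these cells, 8 were higher in Casp9 KO, 0 were called with limma and 2 had an unadjusted p under 0.05, with a median of 0.20. In Bak/Bax DKO 2 were higher and 1, Cox6a2, fell. With Bak/Bax DKO replicate 2 left out, 1 of them rose in Casp9 KO. The summed level was 2306 to 2742 in WT experiment 1, 2862 to 3694 in Casp9 KO, 2901 to 3136 in WT experiment 2 and 1174 to 2609 in Bak/Bax DKO. Tcf4, a bright marker in this sum, was above background on 2 of 3 Bak/Bax DKO arrays (mean 8.71, SD 3.28). The low end of the sum there can thus rest on 1 marker on 1 array. Siglech, the defining surface marker of these cells, was not above background on any array of WT experiment 1, Casp9 KO or Bak/Bax DKO, and was above it on all 3 arrays of WT experiment 2 (mean 4.98).

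All 14 tested erythroid genes were lower in Casp9 KO, with a median of -0.65, and 0 were called with limma (7 at an unadjusted p under 0.05), while 6 fell in the fit on the other 11 arrays, which omits replicate 2 of Bak/Bax DKO. Their summed level was 38079 to 42511 in WT experiment 1 and 23416 to 31960 in Casp9 KO. Of the 14, 6 were higher in Bak/Bax DKO, the median was -0.21 and 0 were called with limma (2 at an unadjusted p under 0.05), with a summed level of 34336 to 40534 against 41285 to 52519 in WT experiment 2. Car1, a bright gene in this sum, was above background on 2 of 3 Bak/Bax DKO arrays (mean 10.6, SD 5.39). With limma 0 markers were called in Casp9 KO among the 7 tested of B and plasma cells, the 4 of T and NK cells and the 11 of neutrophils, with 0 at an unadjusted p under 0.05 in each. In Bak/Bax DKO 1 B cell or plasma cell marker rose, 1 fell and 1 of T and NK cells fell. There 0 of the 11 neutrophil markers were called with limma, 5 had an unadjusted p under 0.05, and 5 fell when replicate 2 was left out. The part of any of these cell types in the change of the effectors was not tested.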

How the data were processed

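Per the labels, RNA was extracted with a QIAGEN micro kit, labelled with biotin from at most 250 ng and hybridized to the arrays, 6 to a beadchip. The deposited bead intensity table holds 1 linear value per probe and array, with no background subtraction visible in the values. The score beside it, which the authors' header calls a detection p-value, rose with intensity on every array (Spearman correlation of at least 0.984) and was read as 1 minus p. The authors deposited log2 values normalized over the 12 arrays, with GenomeStudio and limma named in the submitters' processing notes without versions. Running neqc of limma (offset 16) on the intensities gave the deposited log2 values to within 0.0197, though no header names that step.

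The log2 values were used as deposited. A model of 4 group means was fitted across all 18867 detected probes with limma 3.58.1 in R 4.3.3 (8 residual degrees of freedom, eBayes, two-sided tests, Benjamini-Hochberg adjustment over all probes), and it was tested on simulated data. A list gene was represented by its detected probe with the highest mean, and symbols were brought up to date by Entrez ID. Genes were named by rule: all probes of the 9 effectors, the targeted genes, the nearest probes in course, and the 4 genes of each pathway list with the smallest p in Casp9 KO; others named were chosen after their values were seen. The genes and lists were chosen with earlier results of these data known. Alternatives covered normalization, scaling, the detection filter, the arrays fitted, array weights, probe rule, pairing and each array left out. Figures were drawn with matplotlib 3.10.9. Some genes of the lists are counted but not reported here by name.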

Additional observations from a re-analysis of the deposited data

Results flagged for a closer look

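For 3 probes the effects of the 2 knockouts differed by limma's test of the difference itself over all 12 arrays. Rsad2 rose by 2.68 log2 units more in Casp9 KO than in Bak/Bax DKO (SE 0.41, adjusted p = 0.011), with all 3 knockout arrays above their own wild type in both experiments. The fitted change of Mx2 was 1.612 larger in Casp9 KO (SE 0.29, adjusted p = 0.0265), and that of the Ifit3 probe ILMN_1246194 was 1.619 larger (SE 0.26, adjusted p = 0.0146). Both of these rest on wild-type arrays that were not above background, so their fitted changes are not bounds. The Ifit3 probe also passed the detection filter only through the Casp9 KO arrays, so that filter favoured its larger rise there. Each knockout lies on its own beadchip with its own wild type, so genotype and experiment cannot be told apart in these differences.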

How the results depend on the processing

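All settings were listed with the design. The difference of effects needs all 4 groups and was not fitted on 6 arrays, and the replicate block could not be fitted between the wild types, whose numbers lie within 1 experiment each. Among values of single effector probes, 0 of 235 changed sign in Casp9 KO, 0 of 235 in Bak/Bax DKO and 0 of 224 in the difference of effects, while 16, 29 and 10 calls were lost and 7, 2 and 12 gained. Many of these values could not change sign. A change of the filter, 1 probe per gene or the block leaves the fitted change of a probe as it was. So do the 6 arrays alone, or an array of the other experiment left out, for the change in 1 knockout. The count of probes called in Casp9 KO, 216, was 640 with the 6 arrays of the comparison alone, 1184 with array quality weights and 131 with the replicate block, and 111 to 802 with 1 array left out. For Bak/Bax DKO, 344 became 39, 554 and 158, and 133 to 571. For the difference of effects, 281 became 1078 with weights, 102 with the block and 104 to 997 with 1 array left out. Between the wild types, 1576 became 4426 with 6 arrays, 5221 with weights, 856 with 1 probe per gene, 954 with probes averaged and 697 to 3741 with 1 array left out. Rises made up 76.9% of the Casp9 KO calls, 55.2% with weights, 60% with 6 arrays and 86.3% with the block; for Bak/Bax DKO 78.5% became 60.1% with weights. The upper ends for Casp9 KO, the difference and the wild types are without Bak/Bax DKO replicate 2, which had a weight of 0.066.

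Of the effector probes 9 were called in Casp9 KO, 7 with the block and 6 to 11 with 1 array left out. The 3 called in Bak/Bax DKO became 0 with quantile normalization and no background correction, 1 without the detection filter, 0 with 6 arrays and 0 to 3 with 1 array left out. The 3 called differences became 9 with weights, 1 with the block and 2 to 8 with 1 array left out. Between the wild types, where 0 effector probes were called, the sign turned without 1 array: Ifit2 ILMN_2981169 (-0.066 to 0.174), Ifit3 ILMN_2944666 (-0.224 to 0.067), Mx1 (-0.038 to 0.292) and Mx2 (-0.101 to 0.059). Deviations from the group means correlated at -0.075 to 0.204 between same-numbered samples of an experiment and at -0.181 to 0.137 between the others. In experiment 2 the same-numbered values were 0.047 to 0.114 and the others -0.072 to -0.004. These weak correlations do not settle whether the numbers pair samples, and the main fit used no pairing. The causes were not tested. Dim probes give bounds alone, and 3 arrays per group limit what smaller changes can be seen.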

Other observations

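Not every antiviral gene was called. The 8 of the 29 other antiviral effectors that did not pass in Casp9 KO, named here after their values were seen, were Eif2ak2, Isg20, Zc3hav1, Samhd1, Adar, Apobec3, Trim25 and Irgm1. All of them were above background on all 3 wild-type arrays of experiment 1. So were the called genes other than Oas1a, Oas2, Oas3, Rtp4 and Gbp5. Eif2ak2, which encodes the RNA-activated kinase PKR, was at 1.30 (limma adjusted p = 0.0546), Isg20, a nuclease gene, at 0.95 (adjusted p = 0.319) and Adar, an RNA-editing enzyme gene, at 0.80 (adjusted p = 0.0857). The GTPase gene Irgm1 was at 0.06 (adjusted p = 1), with a group mean of 12.75 in WT experiment 1, while its relative Irgm2 rose by 2.08 (adjusted p = 0.000383). The other Irgm1 value, in Bak/Bax DKO, was -0.01 (adjusted p = 0.99), and Irgm2 rose by 1.14 there (adjusted p = 0.0191).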
